A study of Gossypium hirsutum with 6 samples.

Results

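The genes described here encode the machinery that copies nuclear DNA, read in developing cotton fibers. They were chosen by the Swiss-Prot description that the deposited gene table gives each gene, which had to name an origin recognition complex subunit, a DNA replication licensing factor, a DNA polymerase, DNA primase, replication factor C, replication protein A, proliferating cell nuclear antigen, ribonucleoside-diphosphate reductase, a DNA topoisomerase or a DNA ligase. The rule took 210 of the 73622 genes in the table, 109 on A and 101 on D chromosomes, since upland cotton carries both an A and a D subgenome. Of the 210, 45 were described as an RNA-directed DNA polymerase homolog, a reverse transcriptase name that matched the rule by its wording, and each of these 45 had no read in any library. Most of the other 165 genes carry names of the replication machinery or of DNA repair and organelle polymerases.

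RNA was sequenced from fibers of Gossypium hirsutum strain 63 at 5 days and at 15 days post-anthesis (5DPA and 15DPA), counted from the day of flowering, with 3 biological replicates per stage and no treatment or engineered genotype. Fibers are single cells that grow out of the seed coat epidermis, and both stages lie in the period of fiber elongation. The 6 libraries held 15.61 to 16.94 M counts, and 50146 to 52303 genes had a read. The labels do not say whether a replicate pooled several bolls or plants, nor how free the fibers were of seed coat cells.

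DNA replication starts where the origin recognition complex (ORC) sits and loads the MCM helicase, a ring of the subunits MCM2 to MCM7. Primase and DNA polymerase alpha then lay short primers, replication factor C (RFC) loads the sliding clamp PCNA, polymerases delta and epsilon extend the strands, replication protein A (RPA) covers single-stranded DNA, ribonucleotide reductase (RNR) supplies deoxynucleotides, topoisomerases relieve twist and ligase joins the fragments. In plants many of these genes are transcribed as cells enter S phase under E2F factors, and the same machinery serves cell division and endoreduplication, in which DNA is copied without division. Cotton fibers are post-mitotic cells.

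Levels are given in FPKM, a read count per kilobase of gene model and per M counts of the library, and changes as log2 of 15DPA over 5DPA from edgeR's quasi-likelihood test with TMM scaling. FPKM values and their sums carry no TMM scaling, and sums are over all genes of a set, tested or not. With library totals alone the median log2 change of all genes tested was −0.33, and differences in FPKM between stages are to be read against that. A gene is called lower or higher where its Benjamini-Hochberg adjusted p over the 40054 genes tested, those with a mean of at least 1 FPKM over the 6 libraries, was under 0.05. Of the 165 genes, 146 were tested. The other 19 had means under 1 FPKM, and 5 of them had no read.

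Many more replication genes were called lower than higher at 15DPA. Of the 146 tested, 49 fell, 2 rose and 95 did not pass the test. The share that fell was 33.6%, against 10.4 percent of all genes tested, while 13.0 percent of all genes tested were called higher. The fall was at least 2-fold for 44 of the 49, and 6.49 percent of all genes tested were called lower with such a fold. The median log2 change was −0.61 over the 146 genes and −0.04 over all genes tested, and 124 of the 146 had a negative log2 change. The summed level of the 165 genes, tested or not, was 1009, 1674 and 982.7 FPKM in 5DPA replicates 1, 2 and 3. It was 483.9, 653.3 and 460.5 FPKM in 15DPA replicates 1, 2 and 3, so each 15DPA library lay under each 5DPA library. The FPKM ranges of the stages did not overlap, with 15DPA below, for 97 of the 146 genes or 66.4%, where the background was 37.3 percent. Of the 146 genes, 11 had a 15DPA mean under 1 FPKM and met the minimum through their 5DPA level alone (7.53%, against 6.44% of all genes tested), so that they had to differ, and 6 of the 49 falls are among them; the other 43 falls had a 15DPA mean of at least 1 FPKM. In these bulk libraries fewer cells of a type and less RNA per cell cannot be told apart. The number of genes called rested strongly on single libraries: without 15DPA replicate 1 edgeR called 4 of the 146 genes lower (2.05 percent of all genes), and without 5DPA replicate 2 it called 10 (2.11 percent of all genes). It was 56 and 48 without 15DPA replicates 2 and 3 (13.5 and 11.2 percent of all genes) and 36 and 33 without 5DPA replicates 1 and 3 (4.77 and 3.9 percent). All 49 genes kept a negative log2 change in each of these 6 fits. They were chosen as lower with the same libraries, so this sign was largely fixed by the choice.

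With all 6 libraries, the count of replication genes called lower stood above the background under each setting tried. DESeq2 called 55 of the 146 lower (12.2 percent of all genes) and edgeR with library totals alone 73 (19.2 percent). On log2 FPKM with pseudocounts of 1 and 0.1, limma called 72 (22.1 percent) and 63 (18.8 percent), and after quantile normalization 43 (10.8 percent). A minimum of 5 FPKM gave 40 of 67 genes (14.3 percent), no filter 49 of 160 (7.01 percent) and the replicate number as a block 55 of 146 (9.83 percent). Genes called higher numbered 0 to 4 under these settings, fewer than the background share in each, which was 16.1, 7.24, 6.75, 5.88, 11.8, 15.6, 8.96 and 12.6 percent in the order just given. With 1 library left out they numbered 0 to 3, against 3.74, 15.1 and 12.8 percent of all genes without 15DPA replicates 1, 2 and 3 and 7.18, 3.72 and 6.67 percent without the 5DPA replicates in the same order.

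**Figure D1:**
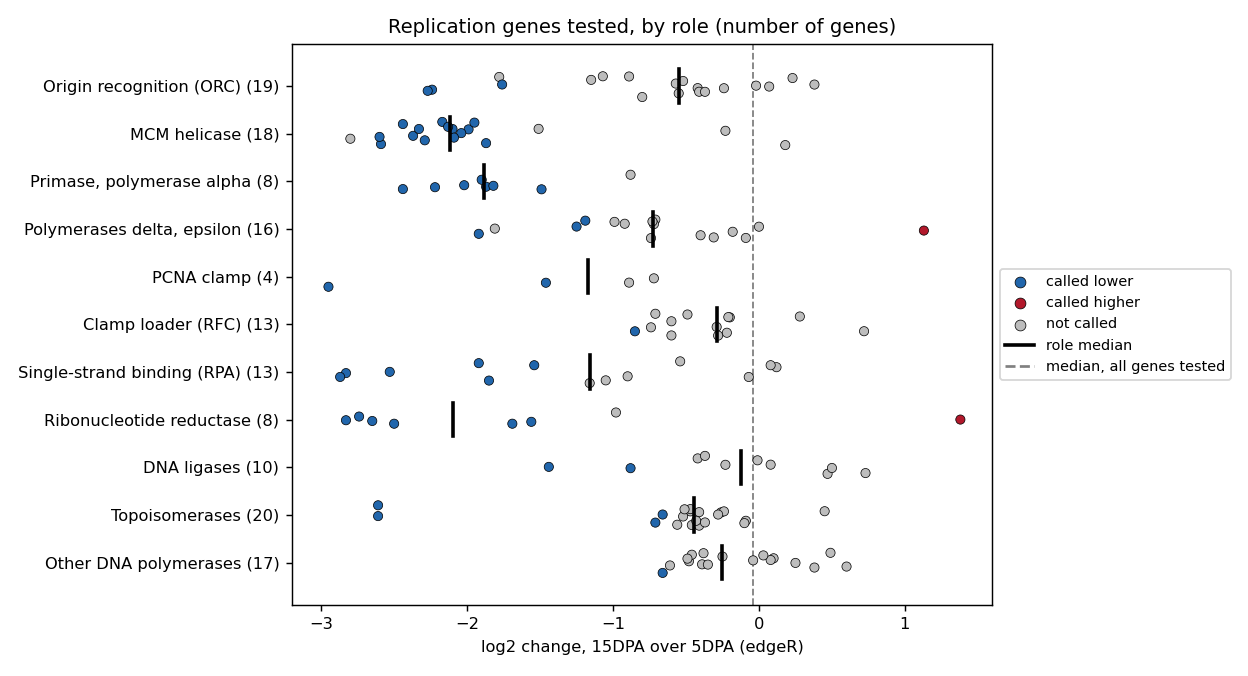
Each point is 1 tested replication gene, with its log2 change of 15DPA over 5DPA on the horizontal axis and its role on the vertical axis; blue, red and grey mark genes called lower, called higher and not called, black bars are role medians and the dashed line is the median of all genes tested (−0.04). MCM, primase with polymerase alpha and ribonucleotide reductase have medians of −2.11, −1.89 and −2.09, while clamp loader, ligase and other polymerase genes have medians from −0.29 to −0.12.

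The counts by role were as follows. Of the 18 MCM genes tested 14 fell, of the 8 primase and polymerase alpha genes 7 fell, and of the 8 RNR genes 6 fell. Of the 13 RPA genes 6 fell and of the 4 PCNA genes 2. The falls in RFC (1 of 13, 7.69%) and in the other DNA polymerases (1 of 17, 5.88%) were a share below that of all genes tested, 10.4%. ORC with 3 of 19 (15.8%), polymerases delta and epsilon with 3 of 16 (18.8%), topoisomerases with 4 of 20 and ligases with 2 of 10 (20% each) were somewhat above it. The falls that met the minimum through 5DPA alone were 2 in each of ORC, MCM and primase with polymerase alpha. Of the 19 ORC genes tested, 10 were ORC2 genes, most of them short gene models. The 20 topoisomerase genes include a pair described as DNA topoisomerase 2-binding protein 1-A, which matched the rule by wording. No test of the differences between roles was made. In the plot of log2 changes by role the 14 MCM genes called lower lie between −2.60 and −1.87, whereas the RPA, RNR and topoisomerase points spread from falls of more than 2.5 to values near or above 0.

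Among the ORC genes, which mark origins, the summed level was 114 ± 35.5 FPKM in the 5DPA and 56.15 ± 7.26 FPKM in the 15DPA libraries (SD, n = 3 per stage). The ORC6 gene Gh_D13G081700 read 10.2, 17.9 and 9.69 FPKM in 5DPA replicates 1, 2 and 3 and 1.14, 3.83 and 1.48 FPKM in the 15DPA replicates in the same order. All 5DPA values were above all 15DPA values, and the gene fell by 2.27 on the log2 scale (SE 0.44, edgeR adjusted p 0.0136). Its A copy Gh_A13G079400 fell by 2.24, with a 15DPA mean of 0.734 FPKM. The ORC3 gene Gh_D03G060300, a subunit of the ring that holds origin DNA, read 2.00, 3.71 and 2.37 FPKM at 5DPA and 0.594, 0.787 and 0.559 FPKM at 15DPA. Its stages were well apart, and it fell by 1.76 (SE 0.30, edgeR adjusted p 0.0104). These last 2 of the 3 ORC falls are genes that met the minimum of 1 FPKM through 5DPA alone. The ORC1B pair, whose Arabidopsis counterpart is known from proliferating cells, had values of 6.91, 17.8 and 7.36 against 4.39, 5.41 and 2.59 FPKM for Gh_A08G018300, with log2 changes of −1.07 and −1.15 for the A and the D copy and edgeR adjusted p of 0.0808 and 0.0793. The ranges did not overlap in this copy, but 5DPA replicate 2 stood far above its own group. None of the 10 ORC2 genes was called by edgeR or by DESeq2, and 2 of them had an unadjusted p under 0.05 in edgeR, both lower. Their log2 changes ran from −1.78 to 0.38. Apart from the A11 and D11 pair, of 1089 bases each, the ORC2 gene models were short, from 240 to 525 bases. Some had few reads, such as Gh_D03G087100 with 14, 4 and 14 reads at 5DPA. The most abundant ORC2 gene, Gh_D10G148400, of 525 bases, read 12.7, 14.8 and 12.1 FPKM at 5DPA and 7.26, 5.74 and 11 FPKM at 15DPA (log2 −0.41, edgeR adjusted p 0.337). With 10 near-namesakes, 9 of them on D chromosomes, reads may have been shared among ORC2 genes. Leaving out 15DPA replicate 1 or 5DPA replicate 2 left 1 ORC call each.

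MCM helicase genes of all 6 subunits fell. For the 19 genes the summed level was 173.8 ± 90.5 FPKM in the 5DPA and 36.00 ± 18.8 FPKM in the 15DPA libraries (SD, n = 3 per stage). The gene with the lowest adjusted p of the 146 tested genes was the MCM7 gene Gh_A11G116500 (chromosome A11, 11329953 to 11335992, plus strand, in the coordinates of the deposited table). It read 14.3, 30.8 and 13.9 FPKM at 5DPA and 2.02, 4.34 and 1.66 FPKM at 15DPA, from 592, 1360 and 609 reads and 87, 195 and 69 reads. The highest 15DPA library was below the lowest 5DPA library, and the gene fell by 2.60 on the log2 scale (SE 0.41, edgeR adjusted p 0.00828). It stayed called with each library left out in turn, with adjusted p of at most 0.0447.

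Summed over the genes of a subunit, the 6 MCM subunits were of like level within a stage. At 5DPA the mean sums ran from 23.80 FPKM for MCM4 to 34.84 FPKM for MCM2, and at 15DPA from 4.511 FPKM for MCM4 to 9.814 FPKM for MCM2. The ring holds 1 copy of each subunit, which is background and was not tested here. MCM3, MCM4, MCM6 and MCM7 fell in all of their tested genes, 4, 2, 2 and 2 in number; the MCM3 genes Gh_A05G135200 and Gh_D05G150000 met the minimum through 5DPA alone. The MCM6 gene Gh_D02G264300 read 12.7, 30.4 and 12.6 FPKM at 5DPA and 3.24, 5.70 and 1.56 FPKM at 15DPA and fell by 2.13 (SE 0.48, edgeR adjusted p 0.0206). The stages of this gene did not overlap either, and replicate 2 was again the highest library of each stage.

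**Figure D2:**
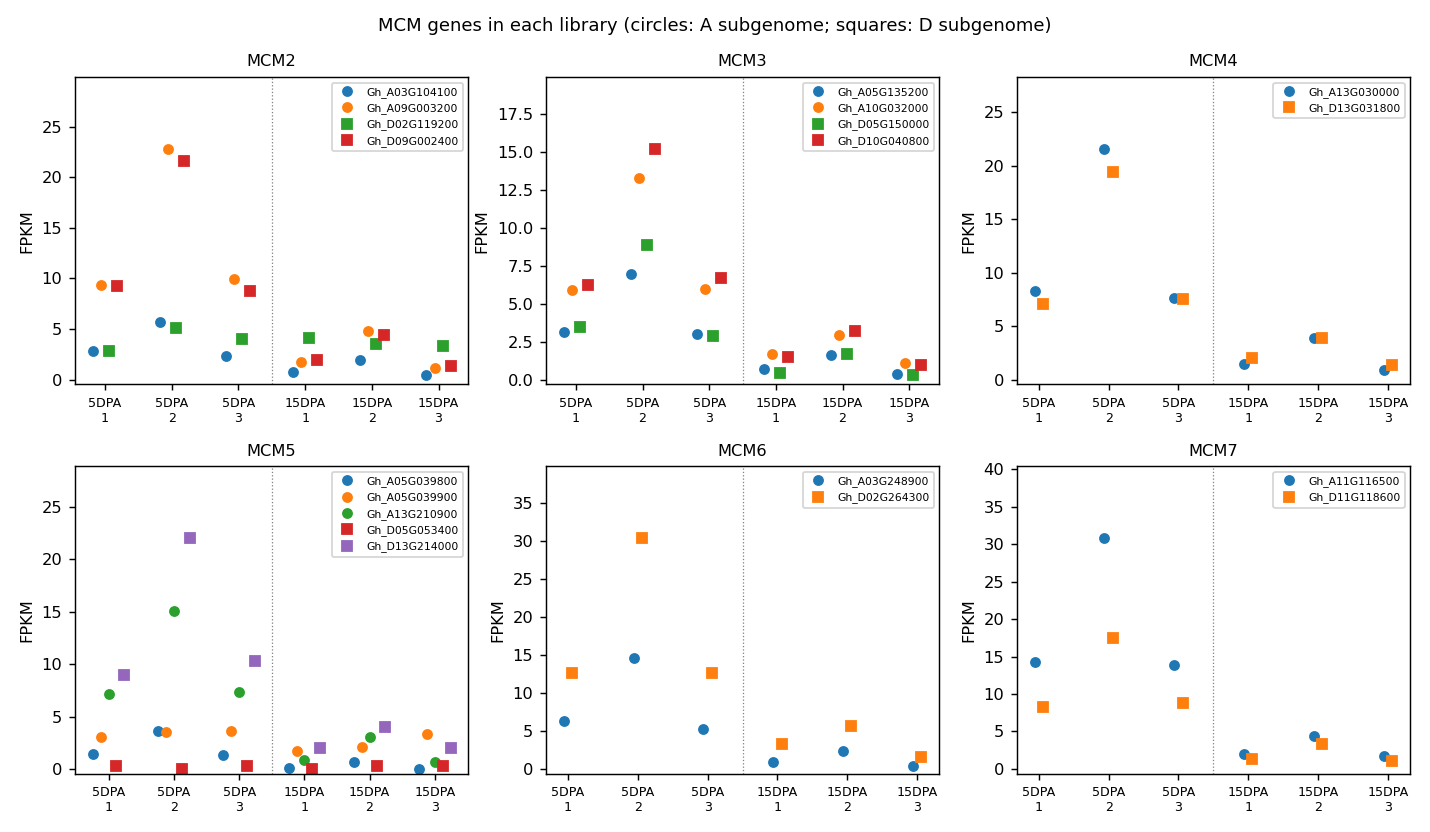
FPKM of each of the 19 MCM genes in the 6 libraries, 1 panel per subunit, with the libraries on the horizontal axis (points are shifted sideways so that they do not hide each other). Replicate 2 is the highest 5DPA library in the main genes of each panel, for example 30.8 FPKM for the MCM7 gene Gh_A11G116500, and the main genes lie lower in each 15DPA library; Gh_D02G119200 (MCM2) and Gh_A05G039900 (MCM5) lie between 1.67 and 5.12 FPKM in both stages.

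MCM2 and MCM5 were the subunits with exceptions. The MCM2 pair on A09 and D09 fell, with log2 changes of −2.17 and −2.10 and edgeR adjusted p of 0.0247 and 0.0198; Gh_A09G003200 read 9.30, 22.8 and 9.93 FPKM at 5DPA and 1.78, 4.77 and 1.17 FPKM at 15DPA. The other MCM2 pair behaved unevenly. Its D copy Gh_D02G119200 read 2.80, 5.12 and 4.0 FPKM at 5DPA and 4.12, 3.52 and 3.29 FPKM at 15DPA, with overlapping ranges (log2 0.18, edgeR adjusted p 0.616), and its A copy Gh_A03G104100 had a log2 change of −1.51 with an adjusted p of 0.0696. The D13 copy of MCM5, Gh_D13G214000, read 9.01, 22 and 10.3 FPKM at 5DPA and 2.04, 3.97 and 1.96 FPKM at 15DPA and fell by 2.09 (SE 0.38, edgeR adjusted p 0.0118). On A05 the MCM5 description falls on adjacent gene models, of 575 and 1473 bases, separated by 30150 bases. The shorter, Gh_A05G039800, had 13, 35 and 13 reads at 5DPA and 1, 6 and 0 reads at 15DPA, while the longer, Gh_A05G039900, read 3.09, 3.51 and 3.66 FPKM against 1.67, 2.12 and 3.30 FPKM (log2 −0.23, edgeR adjusted p 0.604). Without 15DPA replicate 1 edgeR called 1 MCM gene lower, and without 5DPA replicate 2 it called 3. The uncalled MCM genes described here, and the other genes below that are neither the most abundant of their role nor of lowest adjusted p, were picked after their values were seen.

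The primer-making enzymes fell almost throughout. Primase is the RNA polymerase that starts each fragment, and polymerase alpha extends that primer. All 4 primase genes and 3 of 4 polymerase alpha genes fell, and the summed level of the 8 genes was 42.04 ± 18.8 FPKM in the 5DPA and 10.77 ± 2.02 FPKM in the 15DPA libraries (SD, n = 3 per stage). The primase large subunit gene Gh_D02G164900 read 3.18, 7.64 and 4.16 FPKM at 5DPA and 1.20, 1.18 and 0.856 FPKM at 15DPA. Its 15DPA libraries were close together and below the 5DPA libraries, and it fell by 1.90 (SE 0.35, edgeR adjusted p 0.0125), a call that stood with each library left out. The catalytic subunits of polymerase alpha, Gh_A11G205600 and Gh_D11G209400, fell by 2.22 and 1.87 (edgeR adjusted p 0.0197 and 0.0261). The first of these and the primase large subunit copy Gh_A03G135600 met the minimum through 5DPA alone, with 15DPA means of 0.927 and 0.479 FPKM. The small primase subunit Gh_A12G260800 read 4.05, 9.61 and 4.37 FPKM at 5DPA and 1.54, 1.69 and 0.377 FPKM at 15DPA and fell by 2.02 (SE 0.54, edgeR adjusted p 0.034). The exception was subunit B on A05, Gh_A05G306400, at 7.36, 9.87 and 6.80 FPKM against 2.5, 2.78 and 5.23 FPKM (log2 −0.88, edgeR adjusted p 0.0838), where 15DPA replicate 3 was the highest of its stage although the ranges stayed apart. Without 15DPA replicate 1, and likewise without 5DPA replicate 2, 1 of the 8 genes was called.

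The polymerases that copy most of the genome changed less evenly. Polymerase delta works on the lagging and polymerase epsilon on the leading strand. Of 10 polymerase delta genes tested 3 fell, and they were accessory subunits. The subunit 4 gene Gh_A11G248400 read 8.93, 17.0 and 8.37 FPKM at 5DPA and 1.82, 3.33 and 2.25 FPKM at 15DPA. The stages lay far apart in this copy, which fell by 1.92 (SE 0.34, edgeR adjusted p 0.0115). Its D copy Gh_D11G250600 read 14.4, 28.0 and 14.8 FPKM at 5DPA and 5.82, 15.0 and 7.78 FPKM at 15DPA, overlapping between stages because of 15DPA replicate 2 (log2 −0.72, edgeR adjusted p 0.179). The subunit 3 genes Gh_A04G050500 and Gh_D05G345400 fell by 1.25 and 1.19. The catalytic subunits of delta, Gh_A13G157400 and Gh_D13G160200, had log2 changes of −0.40 and −0.74 and were not called (edgeR adjusted p 0.314 and 0.182).

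None of the 6 polymerase epsilon genes was called lower by edgeR, 2 had an unadjusted p under 0.05 in that direction, and DESeq2 called 1. The most abundant were the subunit 3 gene Gh_D05G081900, at 15.2, 27.7 and 20.8 FPKM at 5DPA and 17.1, 14.8 and 13.6 FPKM at 15DPA (log2 −0.18, edgeR adjusted p 0.602), and the subunit C gene Gh_D07G125400, at 16.1, 20.8 and 14.8 FPKM against 6.90, 12.2 and 6.50 FPKM (log2 −0.73, edgeR adjusted p 0.0591). Ranges overlapped in the first and not in the second. The subunit 3 copy on A05, Gh_A05G068100, had a log2 change of −0.00. Against this, Gh_D02G157000, described as the catalytic subunit A of epsilon, rose: it read 2.15, 2.76 and 3.28 FPKM at 5DPA and 5.45, 4.27 and 4.90 FPKM at 15DPA, from 33 to 53 and from 71 to 87 reads. All 15DPA libraries were above all 5DPA libraries, and the log2 rise was 1.13 (SE 0.28, edgeR adjusted p 0.0272). Its gene model holds 981 bases, far shorter than a full catalytic subunit needs, and the rise was called in 2 of the 6 fits that left out 1 library, with adjusted p up to 0.102. Longer models of that description had FPKM ranges lower at 15DPA. Gh_A05G070200, of 6742 bases, had means of 1.57 FPKM at 5DPA and 0.67 FPKM at 15DPA (log2 −0.92, edgeR adjusted p 0.111). It met the minimum through 5DPA alone. Gh_D05G083100, of 6840 bases, had means of 1.52 and 0.475 FPKM and was not tested, at 0.998 FPKM over the 6 libraries. With both polymerases together, leaving out 1 library gave 0 genes (without 15DPA replicate 1) to 6 genes (without 15DPA replicate 2) called lower, and 1 without 5DPA replicate 2.

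PCNA is the ring that holds the polymerases on DNA, and its gene Gh_A03G062700 had the highest mean level of the 146 genes, 27.7 FPKM over the 6 libraries. The pair on A03 and D03 carried most of the PCNA level. Gh_A03G062700 read 29.7, 56.8 and 28.7 FPKM at 5DPA and 16.1, 21.6 and 13.1 FPKM at 15DPA, lower in each 15DPA library than in each 5DPA library, with a log2 difference of −0.89 that just missed the threshold (SE 0.27, edgeR adjusted p 0.0516). Its D copy Gh_D03G133900 had a log2 change of −0.72 (edgeR adjusted p 0.0897). The pair on A13 and D13 was less abundant and fell. Gh_D13G256900 read 9.44, 20.3 and 9.33 FPKM at 5DPA and 1.25, 2.46 and 0.415 FPKM at 15DPA, and fell by 2.95, the lowest log2 change of the 146 genes (SE 0.54, edgeR adjusted p 0.0124). Gh_A13G252500 fell by 1.46 (SE 0.40, edgeR adjusted p 0.0378). The A13 and D13 pair thus held 24.4, 26.5 and 22.5% of the summed PCNA level in the 5DPA libraries and 11.4, 14.3 and 8.92% in the 15DPA libraries. This share, like those given for other families below, was computed after the values were seen and carries no test; it needs no scaling between libraries. The number of PCNA genes called lower ran from 0, without 15DPA replicate 1 and without 5DPA replicate 2, to 2 with 1 library left out, and was 1 without 5DPA replicate 1 and without 15DPA replicate 3.

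**Figure D3:**
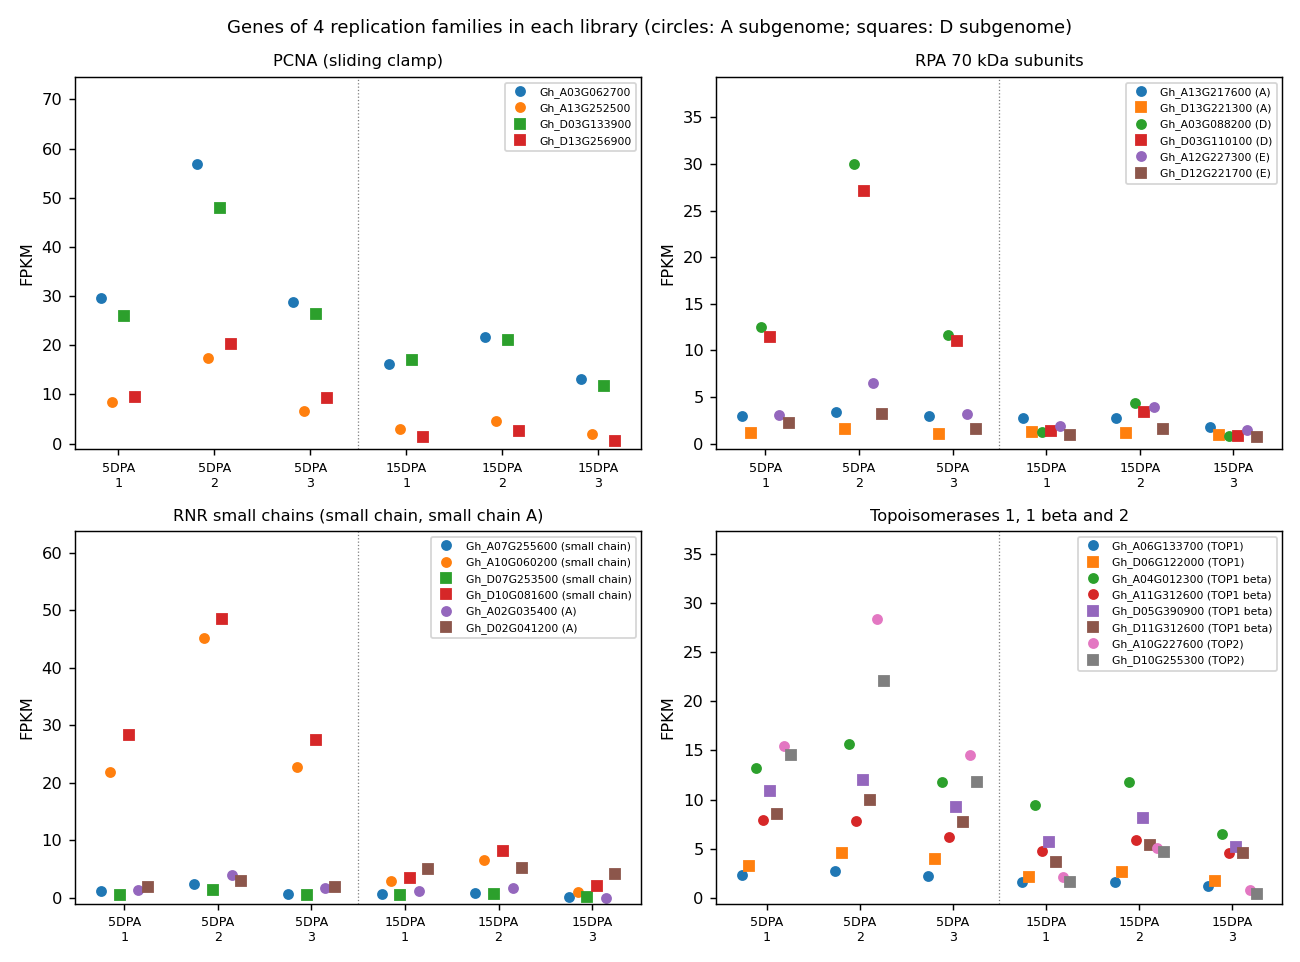
FPKM in the 6 libraries for the genes of PCNA, the RPA70 subunits, the RNR small chains and the topoisomerases 1, 1 beta and 2, with the libraries on the horizontal axis and points shifted sideways. In each family some genes drop to a few FPKM at 15DPA, such as Gh_D13G256900 from 9.33 to 20.3 FPKM down to 0.415 to 2.46 FPKM, while others of the same family differ less between stages, such as the RPA70 A gene Gh_A13G217600 at 2.91 to 3.42 and 1.76 to 2.75 FPKM.

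The clamp loader RFC opens the PCNA ring onto DNA. Of 13 tested genes 1 fell, the subunit 3 gene Gh_D11G258200, by 0.85 on the log2 scale (SE 0.23, edgeR adjusted p 0.0353), a call that was lost in 4 of the 6 fits that left out 1 library, with adjusted p up to 0.124. The summed level, without TMM scaling, was 121.5 ± 19.7 FPKM in the 5DPA and 81.43 ± 5.04 FPKM in the 15DPA libraries (SD, n = 3 per stage). With TMM the median log2 change of the 13 tested genes was −0.29. The large subunit genes Gh_D04G020200 and Gh_A05G403100 had log2 changes of −0.22 and −0.20 with SE of 0.12 each. The first read 14.5, 16 and 14.9 FPKM at 5DPA and 10.7, 11.5 and 9.56 FPKM at 15DPA, so that its ranges were apart on the FPKM scale although edgeR did not call it (adjusted p 0.204). The most abundant RFC gene, the subunit 2 gene Gh_A03G025400, read 15.6, 17.8 and 16.1 FPKM at 5DPA and 15.9, 13.4 and 19.3 FPKM at 15DPA, with overlapping ranges (log2 0.28, edgeR adjusted p 0.312; −0.03 with library totals alone). The subunit 3 gene Gh_A11G254400 stood at 16.7, 22.3 and 16.9 against 11.9, 14.9 and 10.8 FPKM (log2 −0.28, edgeR adjusted p 0.233). Of the 12 genes described as subunit 3, 6 were tested and 4 had no read.

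RPA, a trimer of a large, a middle and a small subunit that coats single-stranded DNA, had 6 called and 7 uncalled genes. Plants have several RPA70 genes; in Arabidopsis some forms are assigned to replication and others to repair or meiosis. The RPA70 D pair fell, and the RPA70 A and E pairs were not called. Gh_A03G088200, of the D type, read 12.5, 30.0 and 11.7 FPKM at 5DPA and 1.25, 4.30 and 0.757 FPKM at 15DPA. Every 15DPA value was below every 5DPA value, and it fell by 2.83 (SE 0.61, edgeR adjusted p 0.0186), with its D copy Gh_D03G110100 at −2.87 (SE 0.53, adjusted p 0.0123). The RPA70 A gene Gh_A13G217600 read 2.95, 3.42 and 2.91 FPKM at 5DPA and 2.71, 2.75 and 1.76 FPKM at 15DPA (log2 −0.07, edgeR adjusted p 0.836), and the RPA70 E genes had log2 changes of −0.54 and −0.90. The RPA70 D pair accordingly held 71.7, 79.5 and 72.5% of the summed RPA70 level at 5DPA and 28.2, 45.3 and 24.7% at 15DPA.

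Both genes of the small RPA14 subunit fell. Gh_A11G367600 read 23.7, 33.4 and 19.3 FPKM at 5DPA and 7.66, 10.5 and 3.39 FPKM at 15DPA (log2 −1.54, SE 0.38, edgeR adjusted p 0.0274), and Gh_D11G375700 fell by 1.85 (SE 0.44, edgeR adjusted p 0.0244). Of the 5 RPA32 genes, the A13 and D13 pair fell by 1.92 and 2.53. The RPA32 gene Gh_D05G068100, described as subunit A like that pair, read 10.4, 17.2 and 8.20 FPKM at 5DPA and 11.3, 11.9 and 8.36 FPKM at 15DPA, with overlapping ranges (log2 0.12, edgeR adjusted p 0.771; −0.18 with library totals alone). Without 15DPA replicate 1 edgeR called 0 of the 13 RPA genes lower, without 5DPA replicate 2 it called 1, and without 5DPA replicate 1 or 3 it called 3, against 6 with all libraries.

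Ribonucleotide reductase, the enzyme that turns ribonucleotides into deoxyribonucleotides and so limits DNA synthesis, held some of the steepest falls and the larger of the 2 rises. All 4 genes of the large subunit fell, by 1.56 to 2.74. Gh_A02G166400 read 12.7, 24.1 and 12.4 FPKM at 5DPA and 1.71, 3.52 and 0.840 FPKM at 15DPA, fully apart, and fell by 2.74 (SE 0.46, edgeR adjusted p 0.00967). Gh_D11G241500 read 11.6, 26.3 and 11.2 FPKM against 3.65, 5.76 and 3.00 FPKM and fell by 1.69 (SE 0.35, edgeR adjusted p 0.0171). Of the small chain, which carries the radical, the A10 and D10 pair was the main source at 5DPA. Gh_D10G081600 (chromosome D10, 9492743 to 9493731, plus strand) read 28.3, 48.5 and 27.5 FPKM at 5DPA and 3.51, 8.18 and 2.03 FPKM at 15DPA. No 15DPA library reached the lowest 5DPA library, and the gene fell by 2.65 (SE 0.44, edgeR adjusted p 0.0095), a call that stood with each library left out. Gh_A10G060200 fell by 2.83 (SE 0.55, edgeR adjusted p 0.014).

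The genes described as small chain A went a different way. Gh_D02G041200 read 1.92, 3.00 and 1.82 FPKM at 5DPA and 4.99, 5.22 and 4.09 FPKM at 15DPA, from 45 to 75 and from 96 to 133 reads. The 15DPA libraries were all above the 5DPA libraries, and the gene rose by 1.38 on the log2 scale (SE 0.24, edgeR adjusted p 0.0112). In the fits that left out 1 library its adjusted p reached 0.0527, so 1 of the 6 fits did not call it. Its A copy Gh_A02G035400 had 27, 87 and 35 reads at 5DPA and 24, 39 and 0 reads at 15DPA (log2 −0.98, SE 0.93, edgeR adjusted p 0.464), with overlapping ranges. A count of 0 in 15DPA replicate 3, beside 96 reads of the D copy, allows up to 3 reads. The A10 and D10 pair held 91.1, 89.6 and 91.5% of the summed small chain level at 5DPA and 46.8, 63.7 and 40.7% at 15DPA. Without 15DPA replicate 1 edgeR called 1 RNR gene lower and without 5DPA replicate 2 it called 3, against 6 with all libraries.

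Few ligase genes passed the test. DNA ligase 1 joins the fragments of the lagging strand, ligase 4 rejoins double-strand breaks, and ligase 6 is a plant form tied in Arabidopsis to repair and seed longevity. Of 10 tested genes 2 fell, both of ligase 1. Gh_D03G156800 read 3.51, 5.74 and 3.83 FPKM at 5DPA and 1.57, 2.02 and 2.17 FPKM at 15DPA, apart in every library (log2 −0.88, SE 0.24, edgeR adjusted p 0.0371), and Gh_A08G228100 fell by 1.44. The most abundant ligase gene, the ligase 1 gene Gh_A03G040800, stood at 10.4, 12.5 and 10.4 FPKM against 6.99, 7.16 and 6.11 FPKM (log2 −0.42, SE 0.14, edgeR adjusted p 0.0583). The ligase 4 genes had log2 changes of −0.23 and −0.37 (edgeR adjusted p 0.355 and 0.382). A ligase 6 gene, Gh_D11G172400, was 1 of the 3 of 146 genes whose FPKM range lay higher at 15DPA, at 2.17, 1.78 and 2.19 FPKM against 2.57, 2.64 and 3.10 FPKM (log2 0.73, edgeR adjusted p 0.0756), where the background for higher ranges was 12.9 percent. The other members of that group were the RNR small chain A gene and the polymerase epsilon gene described above. The ligase calls numbered 0 in 5 of the 6 fits that left out 1 library and 3 without 15DPA replicate 3.

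The larger falls among topoisomerases were in topoisomerase 2, the enzyme that passes one double strand through another and so unlinks sister chromosomes. Gh_A10G227600 read 15.4, 28.4 and 14.5 FPKM at 5DPA and 2.14, 5.03 and 0.791 FPKM at 15DPA. The stages were far apart, and it fell by 2.61 (SE 0.56, edgeR adjusted p 0.0184), as did its D copy Gh_D10G255300, also by 2.61 (SE 0.68, edgeR adjusted p 0.0327). Each of the 2 lies on the same strand as, and 488 or 695 bases from, a gene for the GINS subunit PSF2, whose D copy Gh_D10G255200 fell by 2.06 (edgeR adjusted p 0.0403) and whose A copy Gh_A10G227500 had a log2 change of −1.18 (edgeR adjusted p 0.127). Whether transcripts of the neighbours run together was not tested. Topoisomerase 1, which relaxes DNA by a single-strand cut and also serves transcription, had smaller log2 changes: Gh_A04G012300, of the 1 beta type, stood at 13.2, 15.6 and 11.8 FPKM at 5DPA and 9.47, 11.8 and 6.47 FPKM at 15DPA (log2 −0.26, edgeR adjusted p 0.348). The ranges of that gene touched at 11.8 FPKM. Of the 9 genes for topoisomerases 1 and 3 tested 1 fell, Gh_D11G312600 with −0.66 (edgeR adjusted p 0.0261).

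Topoisomerase 6 is the plant enzyme that in Arabidopsis is needed for endoreduplication to proceed to high ploidy. Of its 7 tested genes, 3 of them described as B-like, 1 fell, Gh_A13G242100 of subunit B, at 4.89, 6.01 and 4.84 FPKM at 5DPA and 1.93, 3.30 and 2.65 FPKM at 15DPA (log2 −0.71, SE 0.21, edgeR adjusted p 0.0473). Its ranges were apart. The most abundant gene of this enzyme, the subunit A gene Gh_D04G134000, stood at 8.33, 11.2 and 8.17 FPKM against 6.18, 7.30 and 4.14 FPKM (log2 −0.37, edgeR adjusted p 0.258). The topoisomerase 2 pair held 24.3, 31.0 and 23.2% of the summed level of the 22 genes of the topoisomerase role at 5DPA and 6.17, 12 and 2.11% at 15DPA. This role includes Gh_A02G131900 and Gh_D03G072700, described as DNA topoisomerase 2-binding protein 1-A, which matched the rule by wording. They had log2 changes of −0.46 and −0.52 and were not called. Topoisomerase calls numbered 0 without 15DPA replicate 1 and without 5DPA replicate 2, and 1 without 5DPA replicate 1 or 3, against 4 with all libraries.

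Apart from the genes described as polymerase V, the other DNA polymerases work in lesion bypass, in repair or in plastids and mitochondria. Of 17 genes tested 1 fell, the zeta processivity subunit Gh_A11G331000, which read 9.69, 10.0 and 9.17 FPKM at 5DPA and 4.74, 5.47 and 4.74 FPKM at 15DPA (log2 −0.66, SE 0.20, edgeR adjusted p 0.0484). That call was lost in each of the 6 fits that left out 1 library, with adjusted p up to 0.146, and DESeq2 called 0 of the 17. At an unadjusted p under 0.05 edgeR had 4 lower and 1 higher. The summed level, without TMM scaling, was 110.9 ± 4.33 FPKM in the 5DPA and 77.19 ± 12.7 FPKM in the 15DPA libraries (SD, n = 3 per stage). With TMM the median log2 change of the 17 genes was −0.25. The most abundant, Gh_A13G154100, described as polymerase kappa but with a gene model of only 597 bases, read 29.8, 29.2 and 35.2 FPKM at 5DPA and 11.6, 24.2 and 20.8 FPKM at 15DPA (log2 −0.46, edgeR adjusted p 0.214). Its ranges did not overlap, but 15DPA replicate 1 lay well below the others of its stage. The eta, lambda and organelle polymerase I genes had log2 changes from −0.61 to 0.60 and were not called (edgeR adjusted p from 0.117 to 0.953), and the polymerase V gene Gh_A13G049000, named after a fission yeast protein, had −0.38 (edgeR adjusted p 0.0949).

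Copies on the A and D chromosomes moved alike in most cases. By description and matching chromosome, 57 A and D pairs could be formed in which both copies were tested. Both copies fell in 20 pairs, 1 copy fell and the other was not called in 8, neither was called in 28, and the RNR small chain A pair held the remaining call, a rise of its D copy. The median absolute difference between the log2 changes of the copies was 0.27. Their signs matched in 47 pairs, not counting the polymerase epsilon subunit 3 pair, whose copies had −0.00 and −0.18. As 124 of the 146 tested genes had a negative log2 change, most pairs would share a sign even if copies were unrelated. Across the 57 pairs Pearson's r was 0.79 and Spearman's rho 0.75, given as a description with no p, because copies share libraries and near-identical sequence whose reads the counting may have shared. In 6 pairs the copies differed by more than 1 on the log2 scale; among them were PCNA on A13 and D13 (−1.46 and −2.95), polymerase delta subunit 4 (−1.92 and −0.72), ligase 1 on A08 and D08 (−1.44 and 0.47) and RNR small chain A (−0.98 and 1.38). The mean level of the A copy was the higher one in 26 of the 57 pairs.

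**Figure D4:**
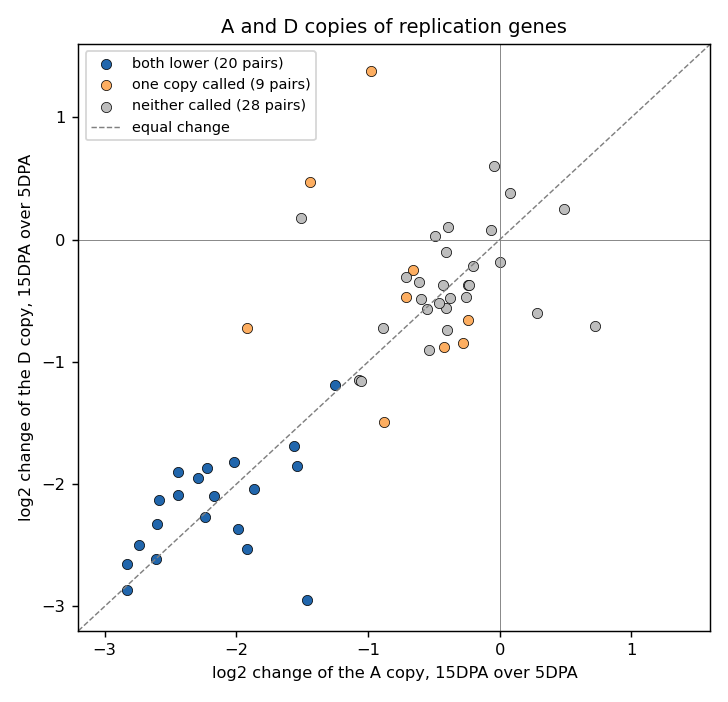
Each point is 1 of the 57 pairs of A and D copies, with the log2 change of the A copy on the horizontal and of the D copy on the vertical axis; colours mark pairs with both copies called lower (20), 1 copy called (9) and neither called (28). Most points lie along the dashed line of equal change, and the point at −0.98 and 1.38 is RNR small chain A.

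Libraries of the same stage also differed in their replication gene levels. 5DPA replicate 2 was the highest of the 6 libraries for 119 of the 146 genes (81.5%), against 34.6% of all genes tested, and for 48 of the 49 genes called lower. The median ratio of 5DPA replicate 2 to the mean of 5DPA replicates 1 and 3 was 2.16 for these 49 genes, 1.55 for the 146 and 1.05 for all genes tested. At 15DPA, replicate 2 was the highest of its 3 for 106 of the 146 (72.6%, against 52.1% of all genes), and its median ratio to the mean of replicates 1 and 3 was 2.36 for the 49 genes, 1.40 for the 146 and 1.14 for all genes. 15DPA replicate 3 was the lowest of all 6 libraries for 85 of the 146 genes (58.2%, against 34.6% of all genes). By role, the ratio of 5DPA replicate 2 to the others of its stage was 2.32 for MCM and 2.03 for RNR, and 1.14 for ligases and 1.12 for other polymerases. Since the 49 genes were chosen by the same libraries, their ratios are a description.

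**Figure D5:**
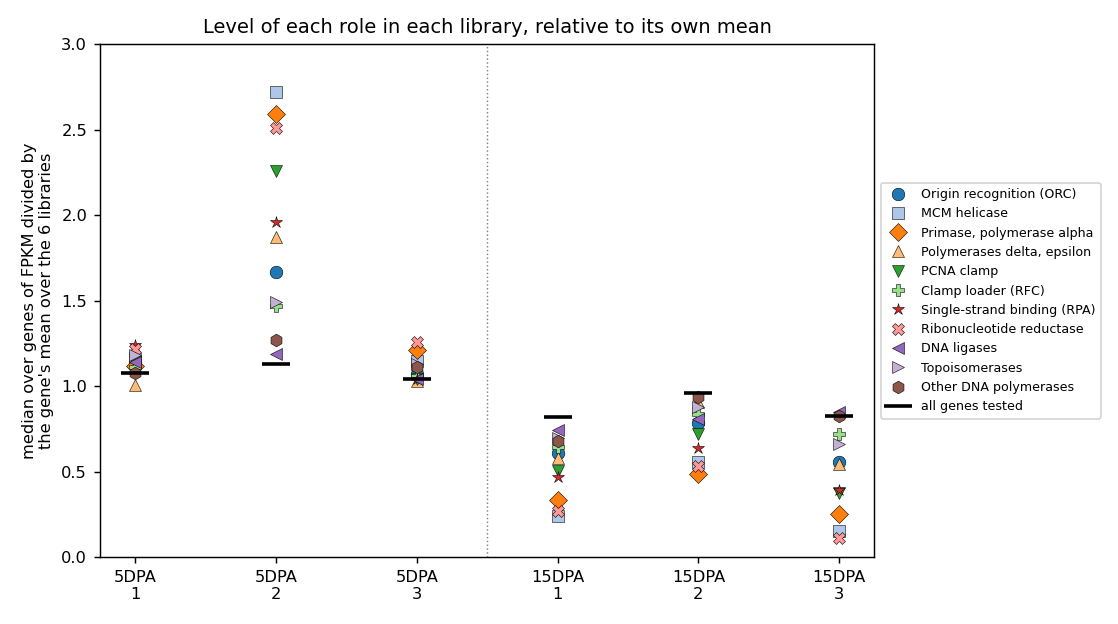
For each role and library, the median over its tested genes of FPKM divided by the gene's mean over the 6 libraries (vertical axis, no unit; 1 is the gene's own mean), with black bars for all genes tested. MCM reaches 2.72 in 5DPA replicate 2 and 0.152 in 15DPA replicate 3, while ligases stay between 0.745 and 1.19.

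Other marker genes differed between the same libraries. Their counts are to be read against the 10.4% of all genes tested that fell and the 13.0% that rose. Their sums cover all genes of a list, tested or not. Histones H2A, H2B, H3 and H4, which package new DNA, fell in 80 of 106 tested genes (75.5%), with summed levels of 6493 to 9721 FPKM at 5DPA, highest in replicate 2, and 1560 to 2456 FPKM at 15DPA, highest in replicate 2 as well. Mitotic cyclins A and B fell in 14 (40%) and rose in 2 of 35 genes (263.7 to 365.8 FPKM against 137.9 to 222.4 FPKM), and genes of spindle, kinetochore, condensin and cytokinesis fell in 21 (31.8%) and rose in 6 of 66 (323.7 to 436.3 FPKM against 244.7 to 310.0 FPKM). Genes that met the minimum of 1 FPKM through 5DPA alone made up 9 of these 14 and 15 of these 21 falls, and 10 of the 35 and 20 of the 66 genes tested. The cytokinesis syntaxin KNOLLE was present at both stages, with a summed mean of 24.4 FPKM at 5DPA and 7.99 FPKM at 15DPA over 4 genes. Most descriptions of that spindle and cytokinesis list had a lower summed mean at 15DPA, but not all. The 5DPA and 15DPA summed means were 51.4 and 66.6 FPKM for kinesin KIN-5D, 46.9 and 50.5 FPKM for TPX2 and 9.95 and 20.6 FPKM for condensin-2 subunit D3. Endocycle regulators fell in 6 (18.2%) and rose in 2 (6.06%) of 33 genes, and 3 of the 6 falls met the minimum through 5DPA alone. Fiber genes rose in 48 (34.3%) and fell in 24 (17.1%) of 140, with sums of 18650 to 23390 FPKM at 5DPA and 30920 to 40120 FPKM at 15DPA, lowest in replicate 2 of each stage. Within this list the 5DPA and 15DPA summed means were 5670 and 11800 FPKM for expansins and 3670 and 6300 FPKM for fasciclin-like proteins, but 1580 and 797 FPKM for sucrose synthases and 49.0 and 15.2 FPKM for the PROTODERMAL FACTOR genes.

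For tissues next to the fiber, the flavonoid genes used as seed coat markers summed to 1172 to 1516 FPKM at 5DPA and 668.7 to 1625 FPKM at 15DPA. In both stages their highest library was replicate 2 and the lowest replicate 3, the order of the summed replication genes. None of their 13 tested genes was called by edgeR, 1 had an unadjusted p under 0.05, toward higher, and DESeq2 called 1. Embryo genes rose in 7 (41.2%) and fell in 2 (11.8%) of 17. The 80 genes listed summed to 506.9 to 733.5 FPKM at 5DPA and 608.9 to 913.5 FPKM at 15DPA. Late embryogenesis abundant descriptions, which are part of this list, held most of these sums. The largest 5DPA and 15DPA summed means were 237 and 319 FPKM for Lea14-A and 138 and 45.5 FPKM for At5g17165. Next were 102 and 156 FPKM for Lea5-A and 87.7 and 192 FPKM for At1g64065. The storage proteins legumin A, legumin B, vicilin C72 and vicilin GC72-A were at 0 in each library. Other storage and oil-body genes had reads. Their 5DPA and 15DPA summed means were 3.04 and 6.75 FPKM for vicilin-like At2g18540 and 0.193 and 2.45 FPKM for vicilin-like At2g28490. Those of the 16.4 kDa and 18.2 kDa oleosins were 1.75 and 5.12 FPKM and 0.73 and 0.162 FPKM. Photosynthesis genes fell in 17 (30.9%) and rose in 3 (5.45%) of 55 (274.6 to 351.0 FPKM against 170.1 to 239.5 FPKM), but 22 of the 55 genes and 11 of the 17 falls met the minimum through 5DPA alone. Of 4 vascular genes tested 1 fell (95.05 to 175.8 FPKM against 14.25 to 38.59 FPKM). The part of dividing or neighbouring cells in the change of the replication genes was not tested.

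Replication and S-phase genes outside the naming rule were listed separately. This list holds 119 genes for loading, unwinding, nucleotide supply, chromatin assembly and E2F control, of which 94 were tested. Of these 30 fell (31.9%, against 10.4% of all genes tested). EdgeR called 0 higher, against 13.0% of all genes tested, with 4 at an unadjusted p under 0.05, and DESeq2 called 1 higher. The median log2 change was −0.85. Of the 94, 26 met the minimum of 1 FPKM through 5DPA alone (27.7%, against 6.44% of all genes tested) and so had to differ; they hold 18 of the 30 falls, and the count and the median are a description only. The PSF1, CDC45, E2FE, E2FF, E2FB and thymidine kinase genes named here as falling, and the PSF2 gene Gh_D10G255200 next to topoisomerase 2, are among the 26. The GINS complex, which joins CDC45 and MCM into the active helicase, fell in all 3 PSF1 genes, such as Gh_D10G077100 with −2.83 (edgeR adjusted p 0.0079), while its SLD5 gene Gh_A10G176400 had −0.03 (edgeR adjusted p 0.921). CDC45 fell in 2 of 4 genes, with −1.88 for Gh_A07G224100 and −2.15 for Gh_D07G221400. Thymidine kinase, which salvages thymidine, fell in the gene Gh_D11G160900 from 5.12, 12.9 and 6.12 FPKM at 5DPA to 0.582, 1.06 and 0.269 FPKM at 15DPA. No library of one stage entered the range of the other, and the fall of 3.35 on the log2 scale (SE 0.52, edgeR adjusted p 0.00786) stayed called with each library left out.

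Regulators of S phase were split. The atypical E2F genes Gh_A08G111100 and Gh_D08G103900, described as E2FE, a repressor of endoreduplication in Arabidopsis, fell by 2.58 and 2.77. Of the genes described as E2FF, Gh_D09G027500 fell by 2.41 (edgeR adjusted p 0.0127). Gh_A09G030000 had −1.59 and was not called (edgeR adjusted p 0.0596). Of 5 tested E2FB genes Gh_A13G248800 and Gh_A13G248900 fell by 2.14 and 2.77. The other 3, Gh_A07G122100, Gh_D07G118500 and Gh_D09G110100, had log2 changes of −0.51, −0.45 and −0.61 and were not called (edgeR adjusted p from 0.196 to 0.358). Of 6 retinoblastoma-related genes, for the repressor that binds E2F, 4 fell, with log2 changes from −2.10 for Gh_A05G272000 to −0.50 for Gh_D04G016700. The most abundant, Gh_D04G016600, had −0.45 and was not called (edgeR adjusted p 0.0618). The 3 E2FA genes tested and the 6 genes for their DP partners were not called (edgeR adjusted p from 0.0933 to 0.706). The 6 most abundant genes of the list did not pass the test. They were the thymidylate kinase genes Gh_A11G177300 and Gh_D07G082000 (log2 0.31 and 0.55), the ribonuclease H2 gene Gh_D05G290000 (0.28), the MCM-binding protein genes Gh_A13G008200 and Gh_D13G008100 (−0.78 and −0.70) and the flap endonuclease gene Gh_D04G102600 (0.25), with edgeR adjusted p from 0.0647 to 0.473; with library totals alone Gh_D05G290000 and Gh_D04G102600 had −0.02 and −0.04. Without 15DPA replicate 1, 5 genes of the list were called lower (2.05 percent of all genes). Without 5DPA replicate 2 there were 6 (2.11 percent), and without 5DPA replicate 3 there were 19 (3.9 percent).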

How the data were processed

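Poly(A) RNA of 6 fiber libraries was sequenced in paired ends, per the labels' protocols; HISAT and StringTie are named, without versions, in the submitters' processing notes. Genome build, counting settings and strand use were not given in the sources used here. The authors deposited whole-number read counts and FPKM values per gene; the FPKM equal the count divided by gene length and library total, without TMM. Near-identical A, D and family copies may share reads, so single copies are uncertain, and 2 tested members overlap another gene (Gh_D06G051000 and Gh_D13G221300, not called). One read on 1 kb was worth 0.059 to 0.064 FPKM.

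From the counts, edgeR 4.0.16 in R 4.3.3 (glmQLFit, glmQLFTest, TMM, two-sided) tested 40054 genes with a mean of at least 1 FPKM, adjusted over all of them, at a threshold of 0.05; 9357 were called. A member that passed the filter through 1 stage alone had to differ: 11 tested members had a 15DPA mean and 1 a 5DPA mean under 1 FPKM. The scripts were tested on simulated data. The labels call the libraries biological replicates. Single values of 3 against 3 cannot go below an exact permutation p of 0.1 and were not tested that way. A and D copies were paired by description on like-numbered chromosomes, or on A02 with D03, A03 with D02, A04 with D05 and A05 with D04. Intervals were not made for FPKM, and limits at 0 cover counting error alone.

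The members and lists were chosen with earlier results of these data known. Named genes were the 4 most abundant tested members of a role (2 for roles with fewer than 8), the 6 with the lowest adjusted p, up to 6 rises, and 6 of the other list. Alternatives used DESeq2 1.42.0, library totals, limma 3.58.1 on log2(FPKM + 1), log2(FPKM + 0.1) and quantile-normalized values, other filters, the replicate number as a block, and each library left out. No sequence or genome was used here.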

Additional observations from a re-analysis of the deposited data

How the results depend on the processing

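Of the 49 genes called lower, 48 remained with DESeq2, 49 with library totals alone, 49 with limma at either pseudocount, 40 with quantile normalization, 47 without a filter, 47 with the replicate number as a block, and 32 of the genes left by a minimum of 5 FPKM. The deviations of same-numbered libraries from their stage means correlated at −0.217, 0.324 and 0.0617, so the numbers were not taken to pair them. The replicate block gave 55 genes lower and 2 higher, 8967 of all genes called, 32 of the other list and a median of −0.64. The member count stayed within 1.5 times of 49, from 40 to 73, in all alternatives that kept the 6 libraries. Genes called higher numbered 1 with library totals, 4 with quantile normalization and 0 at 5 FPKM (edgeR; the smaller count follows from the 67 genes tested). The other list had 13 lower at 5 FPKM. The member median was −0.90 with library totals and with limma at 0.1, and −1.0 at 5 FPKM; the median of all genes was −0.33 with library totals and −0.34 with limma at 0.1. Calls over all genes were 55.6% higher with TMM, 27.3% with library totals, and 23.8% and 23.4% with limma at 0.1 and 1.

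With 1 library left out, all genes called ran from 2319 to 11434, members lower from 4 to 56, members higher from 0 to 3, the other list from 5 to 34 and the median from −0.73 to −0.43. 39 of the 49 genes were called in neither the fit without 15DPA replicate 1 nor that without 5DPA replicate 2. The cause was not tested. Calls over all genes were 4786 and 4234 without 5DPA replicates 1 and 3.

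For the 52 named genes, 343 values under the alternatives that kept the 6 libraries had the direction and side of the threshold reported, 40 passed it anew, 5 no longer did and 19 turned sign. Signs turned in 7 uncalled genes. With library totals, limma at 0.1 and limma at 1, the values were −0.03, −0.04 and −0.04 for Gh_A03G025400, −0.18, −0.13 and −0.12 for Gh_D05G068100, −0.19, −0.20 and −0.18 for Gh_D02G122800 (−0.01 at 5 FPKM), −0.02, −0.01 and −0.01 for Gh_D05G290000, and −0.04, −0.03 and −0.03 for Gh_D04G102600. Gh_A05G068100 had 0.02 with DESeq2, 0.00 without a filter, 0.01 with the block, and 0.13 and 0.21 without 15DPA replicate 3 and 5DPA replicate 2. With 1 library left out Gh_D05G081900 ran from −0.37 to 0.01 and Gh_D05G068100 from −0.07 to 0.43. Depth limits genes of few reads, such as the 0 reads of Gh_A02G035400 in 15DPA replicate 3.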
